A study of Rattus norvegicus with 192 samples.

Results

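Imazalil is an imidazole fungicide, and its dose series comprised 6 of the 192 libraries of the series, the 6 whose titles name this chemical. They hold primary hepatocytes of male rats, plated on collagen and exposed for 24 h to 0.14, 0.4, 1.2, 3.7, 11.1 or 33.3 µM imazalil in 0.1% DMSO, with 1 library per dose and all 6 on plate 1. The controls were 8 libraries of the same cells given 0.1% DMSO alone, replicates 2 to 9, of which 2 were on plate 1, 3 on plate 2 and 3 on plate 3. The 4 related fungicides with the same doses and plate set beside it were the imidazole triflumizole and the triazoles flusilazole, tetraconazole and hexaconazole (6 libraries each). RNA was read with TempO-Seq, in which pairs of short detector oligonucleotides are ligated on a transcript, amplified and counted. The comparison asks at which concentration transcripts of these cells responded to imazalil. Cells in a dish for a day lack blood flow and most other liver cells, and the labels do not say whether wells came from separate cultures or animals.

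Azole fungicides inhibit CYP51, the lanosterol demethylase of sterol synthesis. In liver cells many azoles also bind xenobiotic receptors. The receptors CAR and PXR switch on Cyp2b, Cyp3a and Ugt genes, and the aryl hydrocarbon receptor AhR switches on Cyp1a1. The integrated stress response, which acts through the factors ATF4 and CHOP (the product of Ddit3), and the NRF2 response to electrophiles are other programmes that toxic doses of chemicals can start in hepatocytes.

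The imazalil libraries held 5625735 to 7659774 counts and the DMSO libraries 2876741 to 8513985. Some libraries stood apart. The correlation of log2 CPM (counts scaled to a common library total) with the mean of the DMSO libraries was 0.900 at 33.3 µM and 0.972 at 0.4 µM, against 0.989 to 0.993 at the other 4 doses. It was 0.948 for DMSO replicate 5 and at least 0.987 for the other 7 DMSO libraries, each compared with the rest. DMSO replicate 1 had a correlation of 0.827 and was left out by the rule of the dose series. The hepatocyte marker Alb was abundant, with 4001 to 7560 CPM in the imazalil libraries and 4564 to 5193 CPM in the DMSO libraries. CPM here are scaled for composition (TMM).

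The response was concentrated at the highest dose. A probe was called when its adjusted p was under 0.05 in edgeR, among 11055 probes tested. All imazalil libraries were on plate 1 and plate was a term. A change at a single dose is thus in effect set against DMSO replicates 2 and 3, the 2 control libraries of that plate. Its spread comes from all 8. In the trend over doses, given below, the imazalil libraries also enter the baseline and the spread. Ranges and ratios of DMSO are over all 8. Over 109 well-counted genes the change at 33.3 µM lay within 0.012 on the log2 scale of that against replicates 2 and 3, and within 0.51 of that against the mean of all 8. Without the plate term, of 84 genes examined singly and called at 33.3 µM only Hmox1 and Col1a2 lost the call, and none moved by more than 0.56. Against DMSO, 3285 probes were called at 33.3 µM, of which 1545 (14%) were higher and 1740 (15.7%) lower. At 11.1 µM 5 probes (0.0452%) were higher and 0 lower. At 0.14, 1.2 and 3.7 µM edgeR called 0 probes. Before adjustment 241, 405 and 336 had a p under 0.05 at these doses, and the calls of DESeq2 numbered 0, 15 and 5. The library at 0.4 µM broke the order of doses, with 42 probes (0.38%) higher and 185 (1.67%) lower. Of these 227 probes 101 were also called at 33.3 µM, 30 of them in the opposite direction, and 4 were called in the trend over doses, 1 of them in the same direction. In that library single genes were far below their neighbours: Fdps, an enzyme of the mevalonate pathway, had 112, 1.1, 42.3, 74.5, 47.8 and 29.1 CPM over the ascending doses, against 53.4 to 116 CPM in DMSO. Nqo1 and Cd36 were low in the same library, at 5.91 and 5.08 CPM.

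**Figure D1:**
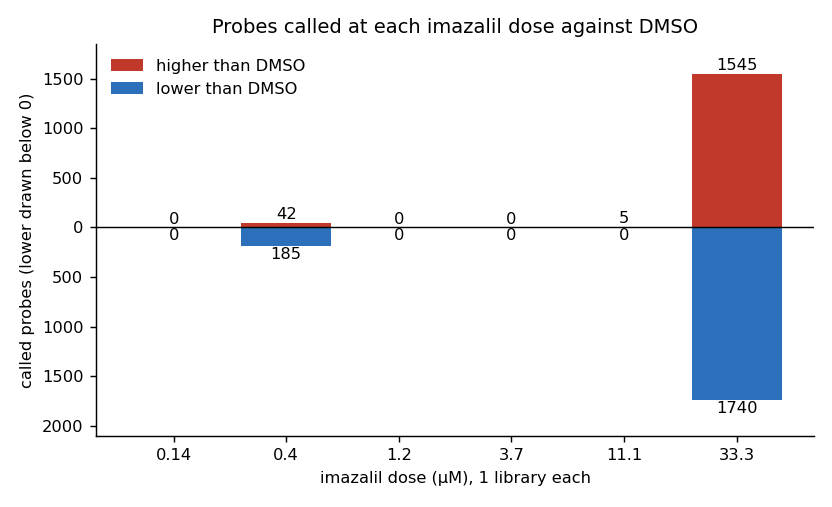
Number of probes called in edgeR at each imazalil dose (µM, x axis), with plate as a term (change against the 2 DMSO libraries of plate 1, spread from all 8), drawn upwards for higher and downwards for lower (y axis). Bars reach 1545 and 1740 at 33.3 µM, while the 11.1 µM library has 5 and 0, and the 0.4 µM library has 42 and 185.

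The trend over all 6 doses, with the score log2(1 + dose) and plate as a term, called 865 probes higher (7.82%) and 326 lower (2.95%). Of these 1191, 1158 were also called at 33.3 µM, all 1158 in the same direction, and 2 at 11.1 µM. The median fitted change over all tested probes was -0.03 in the trend and -0.05 at 33.3 µM, on the log2 scale. The trend rested on its top library: without 33.3 µM 5 probes were called, and without 11.1 µM 3403. Among the DMSO libraries, leaving out replicate 2 gave 490 called probes, replicate 8 gave 778, and adding replicate 1 gave 52. On plate 1 alone, with 2 DMSO libraries, 2 probes were called. The count at 33.3 µM was 1683 without DMSO replicate 2 and 479 with replicate 1 added. Of the 84 genes examined singly and called at 33.3 µM, 27 kept the call with replicate 1 added, 52 lost it and 5 changed sign. Most calls of single genes at 33.3 µM given below thus depend on leaving that library out. With 1 library per dose, each test of a dose takes its spread from the DMSO libraries, so effects of dose and of the single library cannot be told apart.

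Drug-metabolizing enzymes formed the response at 11.1 µM, and most of it was smaller at 33.3 µM. The 5 genes called at 11.1 µM were Cyp1a1, Cyp3a1, Ugt2b1, Ugt2b10 and Gsta2. Gsta2, a glutathione transferase, is named because the count is small and was chosen after its value was seen. Ugt2b10, a glucuronosyltransferase, had 255, 191, 233, 428, 1374 and 277 CPM from 0.14 to 33.3 µM, and 181 to 344 CPM in DMSO (median 243). Its libraries at 3.7 and 11.1 µM lay above every DMSO library, and that at 33.3 µM lay among them. The change at 11.1 µM was 2.11 on the log2 scale (SE 0.22, adjusted p 0.018), against -0.20 (SE 0.23) at 33.3 µM. Ugt2b1, of the same family, had 275 CPM at 11.1 µM and 116 CPM at 33.3 µM, against 42.2 to 80.4 CPM in DMSO, a change of 1.78 at 11.1 µM (SE 0.21, adjusted p 0.026). Gsta2 had 201, 195, 251, 294, 716 and 187 CPM in order of dose, with 205 to 266 CPM in DMSO, and rose by 1.74 at 11.1 µM (SE 0.19, adjusted p 0.018). All 5 calls were lost without any one of DMSO replicates 2, 3 or 8, and with replicate 1 added.

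Cyp3a1, a classical PXR target, had 417, 495, 563, 654, 1640 and 729 CPM in order of dose, against 349 to 546 CPM in DMSO. The 4 highest doses lay above the range of DMSO, and the change at 11.1 µM was 1.61 (SE 0.20, adjusted p 0.026). Cyp2b2, the leading CAR target in rat liver, had 39.7 CPM at 11.1 µM and 3.85 CPM at 33.3 µM, with 1.24 to 2.11 CPM at the 4 lower doses and 0.671 to 3.23 CPM in DMSO. Only 11.1 and 33.3 µM lay above DMSO. The change at 11.1 µM was 4.03 (SE 0.56) with an adjusted p of 0.063, past no threshold, while its trend of 4.18 (SE 1.13) was called with an adjusted p of 0.032. Up to 3.7 µM the Cyp2b2 trend had the opposite sign, -0.57. Cyp1a1, the AhR target, had 0.274, 12.6, 11.1, 12.1, 29.5 and 0.670 CPM, against 0 to 3.37 CPM in DMSO (median 1.12). The 4 middle doses lay above every DMSO library, and the lowest and highest did not. The rise at 11.1 µM was 5.30 (SE 0.61, adjusted p 0.023), and 4.43 without the plate term. Cyp1a1 was also called at 0.4 µM (4.08, SE 0.63, adjusted p 0.0086, and 3.21 without the plate term), a call lost without DMSO replicate 2 or 3 and with replicate 1 added. Cyp1a2, the other Cyp1a enzyme, was not called at either dose. Its imazalil slope in the edgeR model of 5 chemicals used below was 0.94 (adjusted p 0.0090). The slopes of the other 4 azoles ran from 0.17 to 1.09.

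Cyp3a2 and Cyp2c6v1 kept their level at the top dose. Cyp3a2 had 418, 622, 563, 637, 849 and 912 CPM and DMSO 414 to 511 CPM, and Cyp2c6v1 had 223, 339, 285, 312, 511 and 519 CPM and DMSO 199.7 to 249 CPM. In both, the 5 doses from 0.4 µM upwards lay above the DMSO libraries. Their changes at 33.3 µM were 1.13 (SE 0.17, adjusted p 0.0015) and 1.20 (SE 0.18, adjusted p 0.0016). Of the 31 listed CAR and PXR targets 19 were tested, and 6 of these rose and 0 fell in the trend: Cyp2b2, Cyp3a1, Cyp3a23/3a1, Cyp3a2, Cyp2c6v1 and Ugt2b1. Their list had a median trend of 0.39, beside -0.03 over all probes, of which 7.82% rose and 2.95% fell in the trend. At 33.3 µM the same list had 2 higher and 3 lower members of 19, beside 14% and 15.7% of all probes. One of those lower was Por, the reductase that feeds electrons to all microsomal P450 enzymes, with 108 CPM at 33.3 µM against 254 to 472 CPM in DMSO (change -1.44, SE 0.34, adjusted p 0.011). Alas1, the first enzyme of heme synthesis, had 416 CPM at 11.1 µM and 107 CPM at 33.3 µM, against 136 to 272 CPM in DMSO, and passed neither test. The names Cyp3a1 and Cyp3a23/3a1 overlap and their probes may read the same gene, which the count of 6 would then hold more than once. Probes of the Cyp2b, Cyp3a, Ugt2b and Gsta families can share transcripts, so single members are uncertain. Without DMSO replicate 2 the trends of Cyp2b2, Cyp3a1 and Ugt2b1 lost their calls, and that of Ugt2b1 also without replicate 8.

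**Figure D2:**
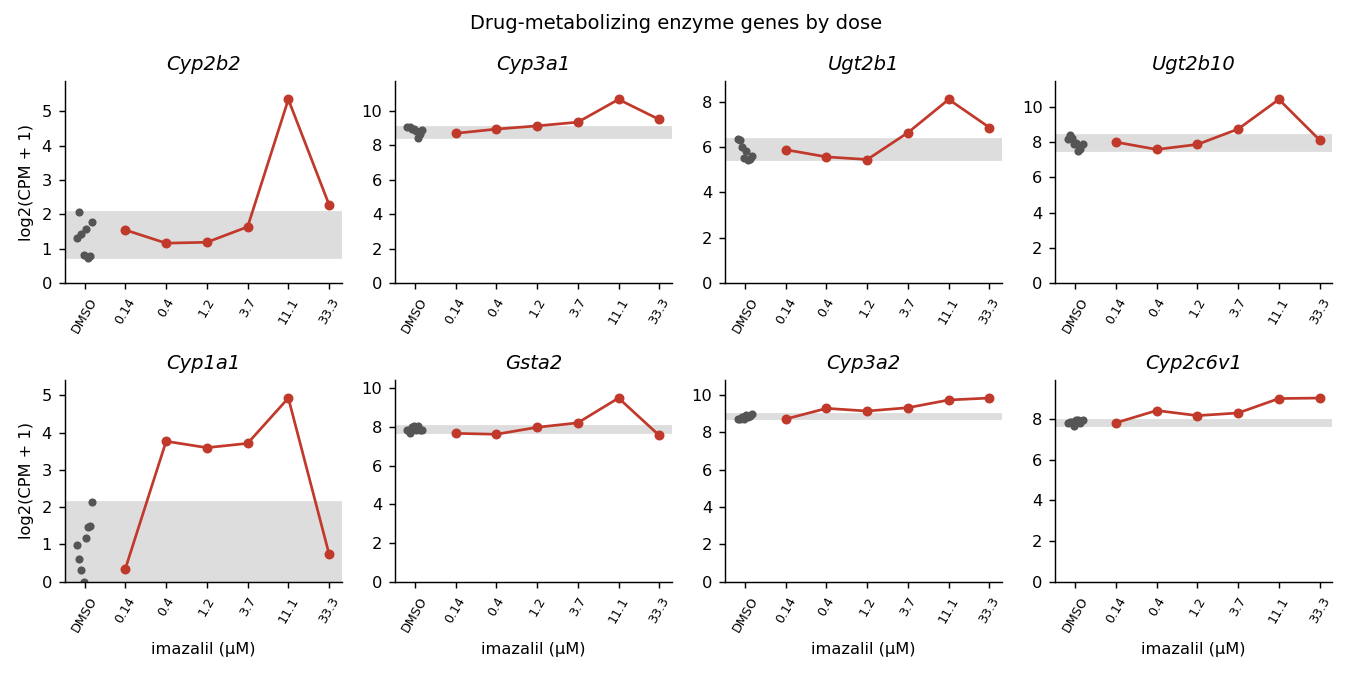
Level of 8 drug-metabolizing enzyme genes, as log2(CPM + 1) on the y axis, in 8 DMSO libraries (grey points, grey band for their range) and in 1 library per imazalil dose (red, µM). 6 of the genes peak at 11.1 µM and lie lower at 33.3 µM, while Cyp3a2 and Cyp2c6v1 are at 912 and 519 CPM at 33.3 µM, above their DMSO ranges.

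Part of the integrated stress response list was higher at 33.3 µM, 11 of 29 tested genes, and 7 were lower. Over all probes 14% were higher and 15.7% lower at this dose. Ddit3, which encodes the pro-apoptotic factor CHOP, had 73.6, 78.7, 65.0, 73.6, 54.8 and 1773 CPM over the doses, and 47.0 to 76.0 CPM in DMSO (median 60.5). The library at 33.3 µM was 28.9 times the mean of DMSO, while the 5 lower doses stayed at or near the DMSO range. The change was 4.82 (SE 0.21, adjusted p 4.4e-06). Atf3, a transcription factor of the same programme, had 232 CPM at 33.3 µM, 20.3 to 34.0 CPM at the lower doses and 16.3 to 30.7 CPM in DMSO (change 3.15, SE 0.30, adjusted p 0.00023). Ppp1r15a, whose product GADD34 reverses the arrest of translation, had 319 CPM, against 73.5 to 127 CPM in DMSO (2.07, SE 0.26). Mthfd2, of mitochondrial folate metabolism, had 38.7 CPM against 6.02 to 15.1 CPM (1.85, SE 0.38). In the trend 6 of the 29 were higher and 0 lower, beside 7.82% and 2.95% of all probes. Asns, asparagine synthetase, rose by 0.75 (SE 0.21), a call lost without DMSO replicate 2 or 3, and Trib3 had 111 CPM against 46.3 to 79.4 CPM without passing the test. Atf4 itself, named after its value was seen, fell to 125 CPM at 33.3 µM, against 338 to 718 CPM in DMSO (-1.62, SE 0.36). With any 1 DMSO library left out, 6 to 15 of the 29 were higher at 33.3 µM.

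The promoter of Ddit3 is shown because the gene had the smallest adjusted p of its list. The RefSeq sequence on build GRCr8 at chr7:65001445-65001744, plus strand, covers 250 bases before the start and 50 after it. It was searched for the C/EBP-ATF response element TGATGNAA on both strands and held 0 matches, beside 3.98% of 33469 RefSeq promoters with 1 or more, so it carries no capitals. Of the 6 stress response genes called in the trend 4 had a promoter in the table, and 0 of them held the element.
Ddit3: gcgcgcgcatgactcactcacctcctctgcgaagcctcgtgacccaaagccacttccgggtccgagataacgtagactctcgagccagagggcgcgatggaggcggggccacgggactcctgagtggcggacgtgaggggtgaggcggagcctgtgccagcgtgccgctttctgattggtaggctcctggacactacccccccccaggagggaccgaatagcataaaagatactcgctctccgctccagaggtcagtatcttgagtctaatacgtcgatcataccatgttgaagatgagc

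Genes of the unfolded protein response, the endoplasmic reticulum programme that can also feed into Ddit3, did not rise as a group. Of 16 tested members 8 were lower and 1 higher at 33.3 µM, with a median of -1.08. The shares over all probes were 15.7% lower and 14% higher. Hsp90b1, a chaperone of the endoplasmic reticulum, had 999 CPM against 2347 to 4559 CPM in DMSO (-1.52, SE 0.32), and the chaperone Hyou1 had 28.8 CPM against 70.5 to 94.0 CPM (-1.58, SE 0.23). The member that rose was Selenos, a selenoprotein of the degradation machinery there, with 115 CPM against 10.2 to 29.2 CPM (2.04, SE 0.34). Of 13 tested genes of the cytosolic heat shock list 4 were higher and 1 lower, beside 14% and 15.7% of all probes. This list also holds the mitochondrial chaperone Hspd1 and Hmox1, described below with NRF2, both among those higher. Hspd1 had 685 CPM against 159 to 266 CPM (1.50, SE 0.27), and the small heat shock gene Cryab fell to 8.38 CPM, against 67.7 to 109 CPM (-3.27, SE 0.34). The heat shock count ran from 1 to 4 higher as single DMSO libraries were left out.

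Of 16 tested targets of p53, the DNA damage and stress factor, 6 were higher and 1 lower at 33.3 µM, with a median of 0.47, and 9 were not called. Among all probes 14% were higher and 15.7% lower. Mdm2, which encodes the ligase that degrades p53, had 360 CPM at 33.3 µM, against 48.5 to 121 CPM in DMSO (2.02, SE 0.32, adjusted p 0.0020), and the 5 lower doses, at 88.2 to 117 CPM, lay within the DMSO range. Gadd45a, a growth arrest gene, had 540.1 CPM against 151 to 170 CPM (1.80, SE 0.17, adjusted p 0.00021), and the nuclease gene Aen 95.7 CPM against 30.4 to 46.7 CPM (1.64, SE 0.24). Ccng1, cyclin G1, had 14.4 CPM against 0.376 to 5.39 CPM (2.91, SE 0.67), a call lost without DMSO replicate 2. Cdkn1a, the cell cycle inhibitor p21 and a leading p53 target, did not follow: it had 2.51 CPM at 33.3 µM against 4.39 to 21.1 CPM in DMSO (-0.90, SE 0.71, not called). Leaving out single DMSO libraries gave 3 to 8 higher members. Of 18 tested cell cycle genes 0 were higher and 2 lower, beside 15.7% of all probes lower.

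The NRF2 list split. Of 27 tested members 8 were higher and 3 lower at 33.3 µM, and 6 higher and 0 lower in the trend, with median changes of 0.19 and 0.34. The shares over all probes were 14% higher and 15.7% lower at 33.3 µM, and 7.82% and 2.95% in the trend. Srxn1, sulfiredoxin, had 108, 108, 95.0, 93.9, 109 and 638 CPM, against 69.1 to 87.1 CPM in DMSO. All 6 doses lay above every DMSO library, and the change at 33.3 µM was 3.04 (SE 0.21, adjusted p 4.3e-05). Akr1b10, an aldo-keto reductase, had 136 CPM against 39.5 to 61.1 CPM (1.43, SE 0.28), and Gstp1, a glutathione transferase, had 75.2 CPM at 11.1 µM and 91.8 CPM at 33.3 µM against 24.0 to 76.7 CPM (1.75 at 33.3 µM, SE 0.52). Cbr1, carbonyl reductase, had 743 CPM against 158 to 402 CPM (1.38, SE 0.30). The calls of Gstp1 and Cbr1 at 33.3 µM were lost without DMSO replicate 2, and that of Gstp1 also without replicate 3. Nqo1, a textbook NRF2 target, had 108 CPM at 11.1 µM and 23.1 CPM at 33.3 µM, against 55.8 to 75.6 CPM in DMSO, and fell at 33.3 µM (-1.36, SE 0.22). Gclc, of glutathione synthesis, was not called at 33.3 µM (-0.63, SE 0.22). Hmox1, heme oxygenase, had 506 to 788 CPM over the doses without an order and 261 to 589 CPM in DMSO, and rose by 1.13 at 33.3 µM (SE 0.25), a call lost without DMSO replicate 2 and without the plate term. Leaving out single DMSO libraries gave 5 to 9 higher members.

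Of the 6 NRF2 list genes called in the trend 5 had a promoter in the table, and Gstp1 alone held the antioxidant response element TGACNNNGC, which 12.1% of all RefSeq promoters hold on either strand. The Gstp1 promoter (GRCr8, chr1:210769656-210769955, minus strand) is shown with that match in capitals.
Gstp1: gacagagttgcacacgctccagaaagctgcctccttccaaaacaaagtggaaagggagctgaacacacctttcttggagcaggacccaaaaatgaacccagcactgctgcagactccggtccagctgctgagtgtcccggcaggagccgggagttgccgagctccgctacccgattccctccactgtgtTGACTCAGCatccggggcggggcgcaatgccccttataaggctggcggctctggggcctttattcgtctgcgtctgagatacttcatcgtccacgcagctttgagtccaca

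Sterol synthesis genes did not rise together. Cyp51, the gene of the enzyme that azoles inhibit, had 274, 226, 215, 255, 255 and 287 CPM over the doses and 201 to 311 CPM in DMSO (median 255), so every dose lay within the DMSO range (change at 33.3 µM 0.33, SE 0.24, not called). Sqle, squalene epoxidase, had 307 CPM at 33.3 µM against 11.3 to 226 CPM, where the value of 11.3 CPM is that of DMSO replicate 5, and was not called. Of 8 tested enzymes from mevalonate to squalene and 9 from squalene to cholesterol none rose at 33.3 µM, and 2 of each group fell, beside 15.7% of all probes lower. Among them were Dhcr7, of the last step, with 6.53 CPM against 12.8 to 25.5 CPM in DMSO (-1.74, SE 0.41), and Mvk, mevalonate kinase, with 14.7 CPM against 38.6 to 96.7 CPM (-1.67, SE 0.41, lost without DMSO replicate 2). Insig1, which holds the sterol sensor SCAP in the endoplasmic reticulum, had 720, 771, 833, 858, 565 and 3122 CPM and 212 to 840 CPM in DMSO. Its change at 33.3 µM was 2.34 (SE 0.54, adjusted p 0.011), lost without DMSO replicate 2. Scap fell to 4.86 CPM, against 30.9 to 89.9 CPM in DMSO (-3.20, SE 0.55), and Insig2, the paralog of Insig1, to 12.9 CPM, against 27.6 to 75.2 CPM (-1.61, SE 0.52, lost without DMSO replicate 2, 4, 8 or 9). In fatty acid synthesis Acaca and Acly fell, by 1.87 (SE 0.40) and 1.27 (SE 0.21), and the desaturase Scd1 rose by 0.95 (SE 0.20).

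The Insig1 promoter (GRCr8, chr4:8057720-8058019, minus strand) is shown because this was the sterol control gene that rose. It held 0 matches to the sterol regulatory element TCACNCCAC, beside 1.12% of all promoters, and 1 match to the E-box CACGTG, beside 6.42%, which is in capitals.
Insig1: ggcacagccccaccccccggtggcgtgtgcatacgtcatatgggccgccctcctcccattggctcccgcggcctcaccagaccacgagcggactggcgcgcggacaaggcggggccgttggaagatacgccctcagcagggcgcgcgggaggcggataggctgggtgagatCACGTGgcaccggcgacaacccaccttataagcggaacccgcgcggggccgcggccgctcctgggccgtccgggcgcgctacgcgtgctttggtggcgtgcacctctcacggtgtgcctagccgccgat

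Lysosomal genes moved in both directions. Imazalil is a weak base with a hydrophobic part, a type of molecule that can gather in acid vesicles. Of 34 tested lysosome and phospholipidosis genes 6 were higher and 4 lower at 33.3 µM, shares near those of all probes (14% and 15.7%). Atp6v1c1, a subunit of the proton pump, had 649 CPM at 33.3 µM against 64.3 to 175 CPM in DMSO (2.28, SE 0.40), and the protease gene Ctsl 11442 CPM against 4564 to 7175 CPM (0.94, SE 0.23, lost without DMSO replicate 2). Lipa, lysosomal acid lipase, named after its value was seen, fell to 10.1 CPM, against 69.3 to 126 CPM (-3.12, SE 0.38), and Lpin1, a phosphatidate phosphatase, to 27.3 CPM, against 116 to 193 CPM (-2.72, SE 0.29). Outside this list, Dnase2b, a lysosomal nuclease, had 24.5, 59.0, 41.0, 43.4, 33.7 and 423 CPM against 13.5 to 48.0 CPM in DMSO, with a trend of 3.30 (SE 0.50). Rragd, a GTPase that links lysosomes to mTORC1, had 0.878 to 1.66 CPM at the 5 lower doses and 19.3 CPM at 33.3 µM, against 0 to 1.50 CPM in DMSO, with a trend of 4.28 (SE 0.69). Of 18 tested lysosome signalling regulators, a list made after values were seen, Rragd was the 1 higher at 33.3 µM. The 1 lower was Gabarapl1, of autophagosome formation, with 2.51 CPM against 7.999 to 20.3 CPM in DMSO (-1.84, SE 0.47, lost without DMSO replicate 2). The median of these 18 was -0.49. Cd68, a lysosomal membrane protein known as a macrophage marker, had 136 CPM against 5.64 to 20.1 CPM (3.55 at 33.3 µM, SE 0.54). Counts of the list ran from 2 to 9 higher and from 2 to 9 lower as single DMSO libraries were left out.

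**Figure D3:**
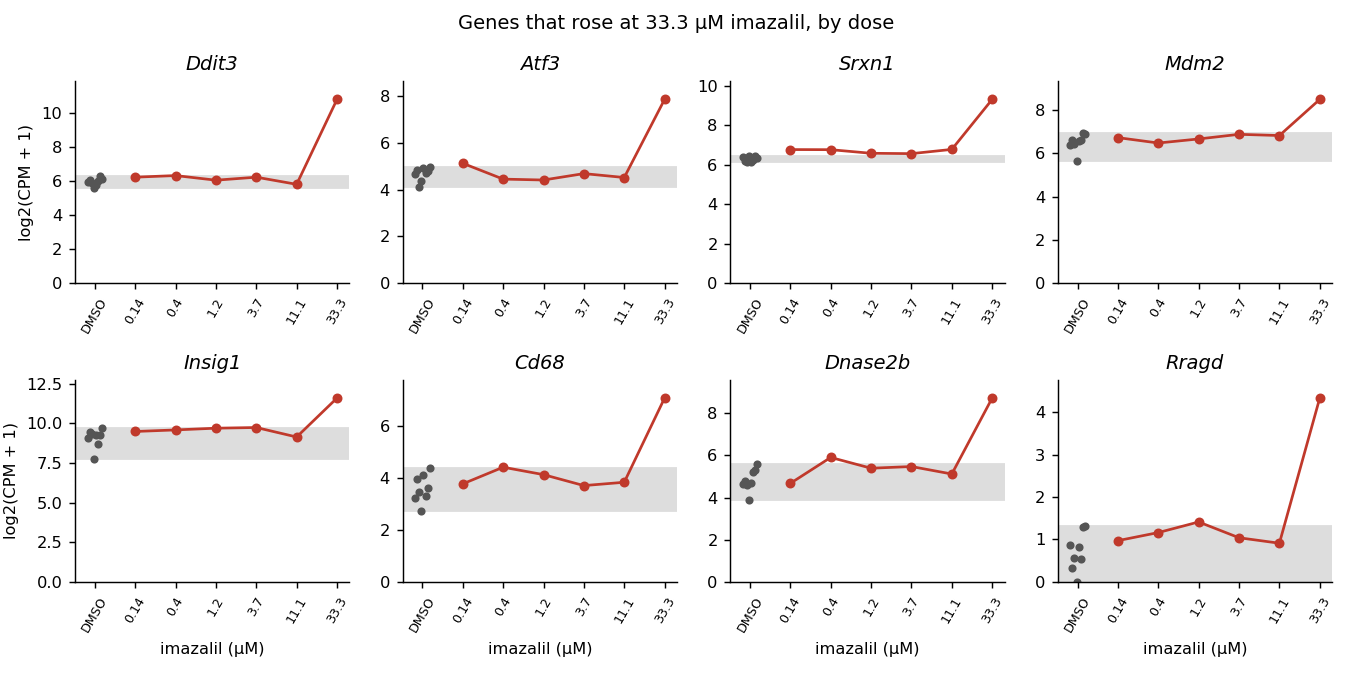
Level of 8 genes called higher at 33.3 µM, as log2(CPM + 1) on the y axis, in 8 DMSO libraries (grey points, grey band for their range) and 1 library per imazalil dose (red, µM). In each panel the 33.3 µM library stands above all others, with Ddit3 at 1773 CPM and Rragd at 19.3 CPM. At 11.1 µM Ddit3 is at 54.8 CPM and Rragd at 0.878 CPM.

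Genes of fat oxidation fell at 33.3 µM. Of 26 tested targets of PPARα, the receptor that drives fatty acid oxidation in liver, 15 were lower and 1 higher at 33.3 µM, with a median of -1.43, and 7 were lower and 2 higher in the trend. Over all probes 15.7% were lower and 14% higher at 33.3 µM, and 2.95% and 7.82% in the trend. Cd36, a fatty acid transporter, had 154, 5.08, 74.0, 96.1, 69.9 and 1.51 CPM, against 110 to 166 CPM in DMSO (-6.40 at 33.3 µM, SE 0.32, adjusted p 1.0e-05). Cpt1a, the gate of mitochondrial fatty acid import, had 1.84 CPM at 33.3 µM against 12.7 to 27.8 CPM (-3.27, SE 0.43), Ech1, of peroxisomal and mitochondrial oxidation, 44.4 CPM against 162 to 195 CPM (-2.07, SE 0.21), Acadvl 69.5 CPM against 177 to 239 CPM (-1.64, SE 0.24) and Vnn1, a pantetheinase, 19.8 CPM against 79.0 to 103 CPM (-2.36, SE 0.23). Against the list, Cpt1b, the muscle form of Cpt1a, had 19.9 CPM against 2.69 to 6.32 CPM (2.08, SE 0.45, lost without DMSO replicate 2), and Fabp1, the fatty acid carrier, had 206 CPM against 63.9 to 122 CPM, with no call at 33.3 µM. Fgf21, the fasting hormone, had 15.9 CPM against 25.8 to 46.3 CPM, with all 6 doses below the DMSO libraries, and was not called at 33.3 µM. In the edgeR model of 5 chemicals used below its imazalil slope was -0.92 (adjusted p 0.0044). The slopes of the other 4 azoles ran from -0.47 to -1.84. Ppara, named after its value was seen, fell to 4.36 CPM, against 20.04 to 36.9 CPM in DMSO (-2.65, SE 0.43).

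Urea cycle and amino acid genes had the largest share of called members among lists with at least 5 tested. Of 28 tested 19 were lower and 1 higher at 33.3 µM, with a median of -1.90, while 3 were called lower in the trend. Over all probes 15.7% were lower and 14% higher at 33.3 µM, and 2.95% were lower in the trend. Cps1, which makes carbamoyl phosphate for the urea cycle, had 140, 223, 360, 296, 205 and 20.9 CPM, against 202 to 300.1 CPM in DMSO (-3.79, SE 0.27). Arg1, arginase, whose name was chosen after its value was seen, had 1959.7 to 2518 CPM at the 5 lower doses and 14.1 CPM at 33.3 µM, against 1502 to 2670 CPM in DMSO. This was the gene with the same smallest adjusted p as Ddit3, 4.4e-06, and a change of -7.47 (SE 0.32). Glud1, glutamate dehydrogenase, fell to 13.9 CPM, against 43.0 to 86.7 CPM (-2.54, SE 0.36), and Mat1a, which makes S-adenosylmethionine, to 48.7 CPM, against 161 to 411 CPM (-2.17, SE 0.44). Uroc1, of histidine breakdown, fell by 2.76 (SE 0.57). Hpd, of tyrosine breakdown, rose by 0.92 (SE 0.23), a call lost without DMSO replicate 2.

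Sugar metabolism and bile acid genes fell with them. Of 17 tested glycolysis and fructose genes 8 were lower and 0 higher at 33.3 µM, beside 15.7% and 14% of all probes. Tkfc, triokinase, fell to 5.70 CPM, against 41.5 to 79.0 CPM (-3.72, SE 0.34). Fbp1, of gluconeogenesis, fell to 98.3 CPM, against 421 to 674 CPM (-2.65, SE 0.21). Beside the same shares over all probes, 6 of 9 tested bile acid genes were lower and 0 higher. Among 18 glucuronosyltransferases and sulfotransferases 6 were lower and 0 higher. Sult1a1, a phenol sulfotransferase, had 399 to 585 CPM at the 5 lower doses and 13.6 CPM at 33.3 µM, against 456 to 778 CPM in DMSO (-5.65, SE 0.30, adjusted p 1.3e-05). Aldh1a1, a retinal dehydrogenase, fell to 47.4 CPM, against 301 to 751 CPM (-3.51, SE 0.39).

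**Figure D4:**
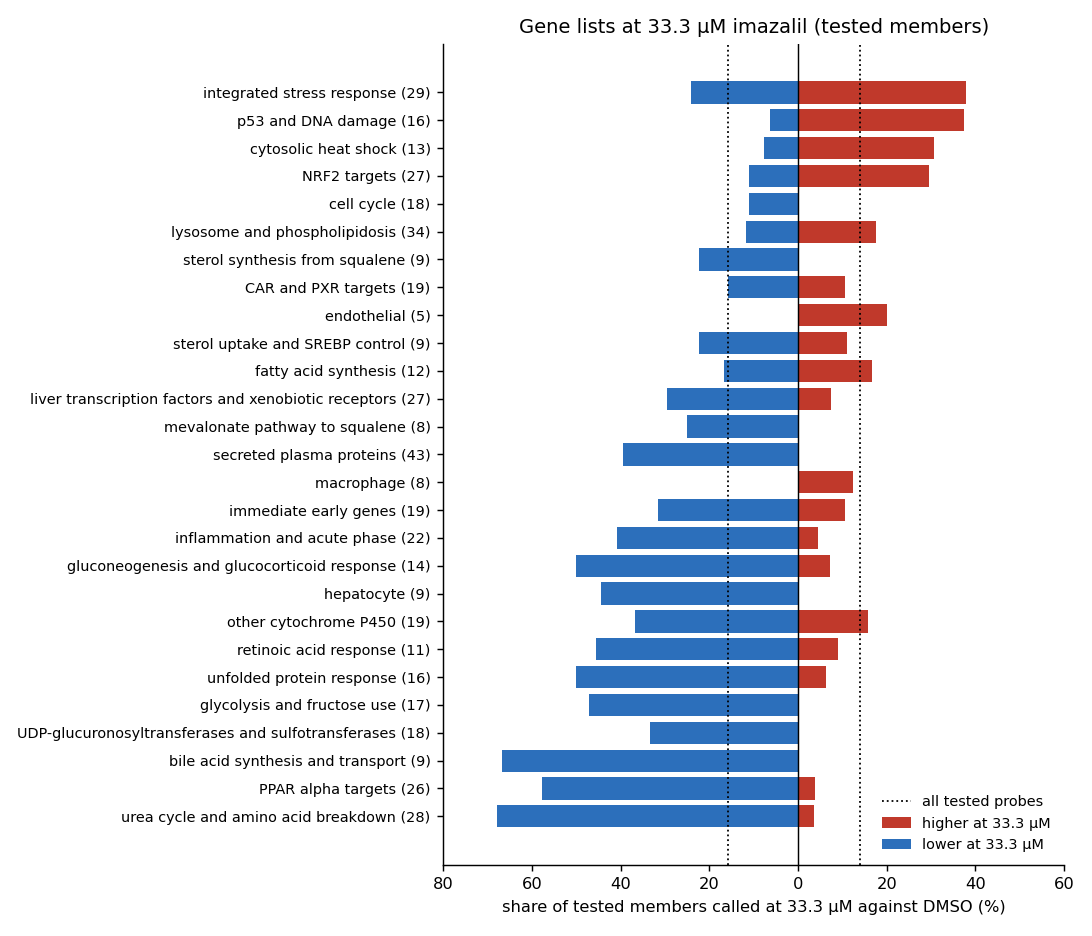
Share of the tested members of each gene list called higher (red, to the right) or lower (blue, to the left) at 33.3 µM imazalil against DMSO, in percent, for lists with at least 5 tested members (number in brackets), sorted by their median change. Dotted lines mark the shares over all tested probes, 14% higher and 15.7% lower. The urea cycle list has 19 of 28 members lower and the integrated stress response list 11 of 29 higher.

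Plasma protein genes fell in part. Of 43 tested 17 were lower and 0 higher at 33.3 µM, beside 15.7% and 14% of all probes. The median was -0.64, and the count ran from 10 to 22 lower as single DMSO libraries were left out. Tf, transferrin, had 795 CPM at 33.3 µM against 2993 to 3696 CPM in DMSO (-2.16, SE 0.21, adjusted p 0.00023). Gc, the vitamin D binding protein, had 2929 CPM against 6816 to 9072 CPM (-1.49, SE 0.21). Alb, albumin, had 4001 CPM at 33.3 µM, just under the lowest DMSO library, and was not called (-0.24, SE 0.16), nor was Apoa1 (-0.64, SE 0.31). Of 9 tested hepatocyte markers, Alb, Apoa1 and Tf among them, 4 were lower and 0 higher, with a median of -0.89. Of 22 tested inflammation and acute phase genes 9 were lower and 1 higher, beside the same shares of all probes. Orm1 fell to 7009 CPM, against 20662 to 34935 CPM in DMSO (-2.16, SE 0.23). Hp, haptoglobin, named after its value was seen, fell to 20.4 CPM, against 498 to 2273 CPM (-5.54, SE 0.73). Hamp, which encodes hepcidin, a hormone of iron balance, rose to 131 CPM, against 24.1 to 48.1 CPM (2.06, SE 0.33). Less RNA per cell and fewer cells that express a gene cannot be told apart in these bulk samples.

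**Figure D5:**
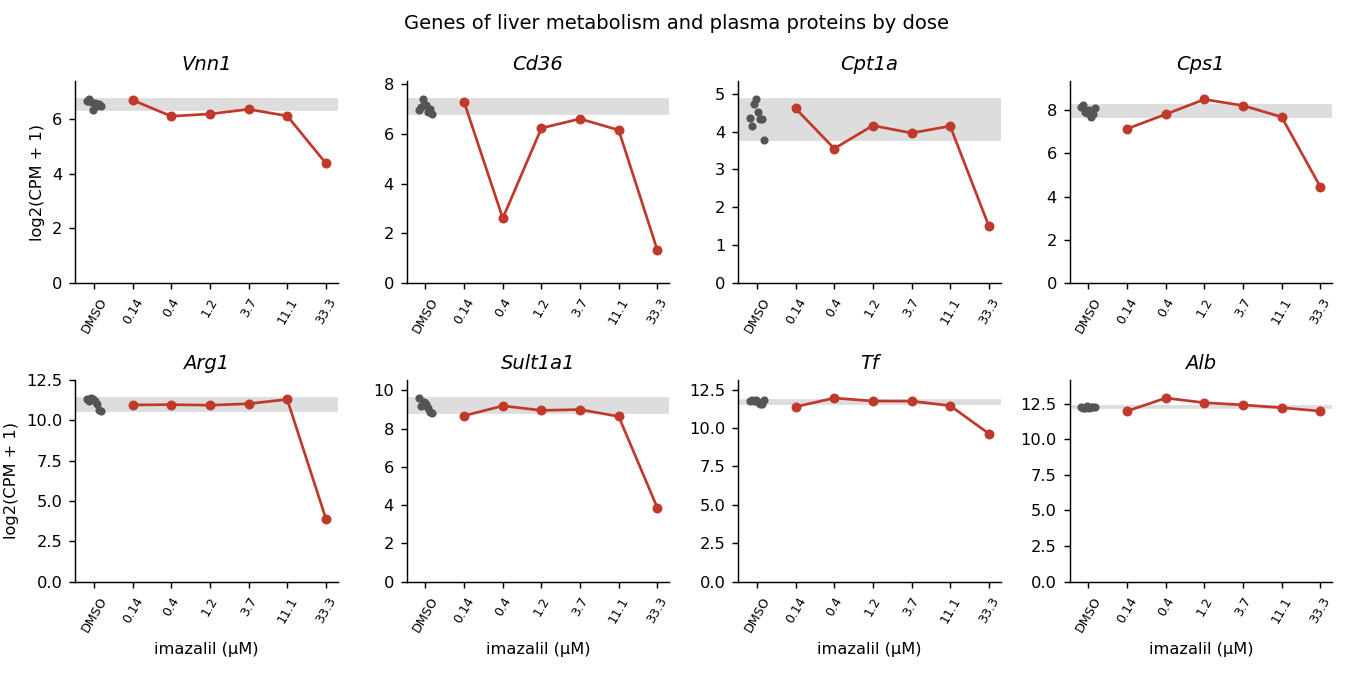
Level of 8 genes of liver metabolism and plasma proteins, as log2(CPM + 1) on the y axis, in 8 DMSO libraries (grey points, grey band for their range) and 1 library per imazalil dose (red, µM). Arg1 is at 14.1 CPM at 33.3 µM against at least 1502 CPM in DMSO, while Alb is at 4001 CPM against at least 4564 CPM. Cd36 is also low at 0.4 µM (5.08 CPM).

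Among regulators, Cebpd, an acute response factor, had 752 CPM at 33.3 µM against 154 to 240.1 CPM in DMSO (1.94, SE 0.21), and Fosl1, of the AP-1 family, 172 CPM against 27.1 to 50.8 CPM (2.43, SE 0.23). Cebpa, which maintains the hepatocyte state, fell to 22.4 CPM, against 64.8 to 130.1 CPM (-1.78, SE 0.38), and Nr1i2, the gene of PXR, to 102 CPM, against 176 to 245 CPM (-1.18, SE 0.21). Hnf4a, the central hepatocyte factor, named after its value was seen, had 83.4 CPM against 51.2 to 101 CPM and was not called (-0.17, SE 0.34). Of 27 tested transcription factors and receptors 8 were lower and 2 higher, beside 15.7% and 14% of all probes. Tiparp, an AhR target, rose by 1.46 at 33.3 µM (SE 0.27), where Cyp1a1 was at 0.670 CPM. Mt2A, a metallothionein, rose by 2.27 (SE 0.36).

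Sema3e, Tnik, Podxl and Cd55 were among the named genes with the highest trend. Each gene named here was required to keep its sign without the 33.3 µM library. For genes with few counts at the lower doses, such as Sema3e, a kept sign says little. The required mean of 10 counts included that library, where these genes were high. Without it 33 of 35 trend calls of genes examined singly were lost, among them those in this paragraph and the next. Sema3e, a secreted guidance protein, had 15.2 CPM at 33.3 µM, 0.274 to 0.879 CPM at the lower doses and 0 to 1.23 CPM in DMSO (trend 5.33, SE 0.73, adjusted p 0.0076, and 4.18 without the plate term). Tnik, a kinase of the Wnt pathway, had 28.6 CPM against 0.878 to 1.92 CPM at the lower doses and 0 to 1.90 CPM in DMSO (4.44, SE 0.70). Podxl, podocalyxin, had 19.9 CPM against 0.492 to 1.50 CPM in DMSO (4.11, SE 0.62), and Cd55, which restrains complement, 22.4 CPM against 0.562 to 2.64 CPM (3.20, SE 0.57). Impdh2, of guanine nucleotide synthesis, had 466 CPM against 18.4 to 64.4 CPM (2.71, SE 0.47). Zbed4, Dpy30, Tgs1, Gab2 and Zc3h8 had trends of 2.82 to 3.40.

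The named genes with the lowest trend fell in steps over several doses in part of the cases. Slc22a8, an organic anion transporter, had 71.6, 65.0, 69.2, 60.99, 43.4 and 5.86 CPM, and every dose lay below the DMSO libraries, at 81.7 to 109 CPM (trend -2.61, SE 0.52, adjusted p 0.013). Pdlim2, a cytoskeleton adaptor, had 15.4, 12.8, 10.3, 10.2, 8.43 and 0.335 CPM, against 13.4 to 29.3 CPM (-3.03, SE 0.62). Rundc3a had 13.4, 19.4, 18.5, 13.2, 9.84 and 1.51 CPM, against 19.2 to 30.2 CPM (-2.88, SE 0.50). Nefl, Vil1 and Calml4 were at 0 counts at 33.3 µM, where 3 counts are 0.503 CPM, and Vil1 also at 11.1 µM. In DMSO Nefl, a neurofilament, had 1.87 to 4.92 CPM, Vil1, the microvillus protein villin, 1.002 to 4.13 CPM, and Calml4, of the brush border, 3.35 to 7.71 CPM. Lgals2, a galectin, had 0.670 CPM against 9.18 to 21.9 CPM (-2.63, SE 0.70). Slc34a2 and Shroom2, a phosphate transporter and a regulator of cell shape, had trends of -2.68 and -2.66. Without DMSO replicate 2 the trends of Vil1, Calml4, Lgals2 and 3 further named fallers (Cdhr5, Ubd and Gal3st1) lost their calls. Vil1 also lost its call without any one of replicates 3, 6, 7, 8 or 9, Cdhr5 and Lgals2 without replicate 3, and Cdhr5 without the plate term.

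Among markers of other liver cells, Epcam, the bile duct marker tested, had 18.3 CPM at 11.1 µM and 26.6 CPM at 33.3 µM, against 16.2 to 28.4 CPM in DMSO, and was not called. At 33.3 µM 14% of all probes were higher and 15.7% lower. Of 8 tested macrophage markers Cd68 was higher at 33.3 µM and the other 7 were not called. Of these C1qa had 0.670 CPM at 33.3 µM and 1.25 to 6.39 CPM in DMSO, and C1qc 9.55 CPM against 10.1 to 20.2 CPM. The endothelial markers Pecam1, Kdr and Lyve1 were at 0.137 to 4.74 CPM in the imazalil libraries and at most 4.61 CPM in DMSO. Cdh5, also endothelial, had 13.9 CPM at 33.3 µM against 5.82 to 8.98 CPM in DMSO (0.96, SE 0.30, adjusted p 0.038), a call lost without any one of DMSO replicates 2, 3, 4, 8 or 9, with replicate 1 added, in DESeq2 and without the filter on low counts. Of 3 tested stellate and mesenchymal markers 2 were lower: Tagln had 12.6 CPM against 47.4 to 80.0 CPM (-2.28, SE 0.27) and Col1a2 0.838 CPM against 1.69 to 2.71 CPM (-1.61, SE 0.53, adjusted p 0.044). The call of Col1a2 was lost without any 1 DMSO library other than replicate 5, with replicate 1 added, without the plate term, without the filter on low counts and in DESeq2. Their part in the other results was not tested.

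Imazalil was then compared with the 4 azoles of the same doses and plate, which share the 8 DMSO libraries with it. In a model of all 5 chemicals, imazalil had 2334 probes with a higher and 1959 with a lower slope, against 59 and 69 for triflumizole, 64 and 101 for flusilazole, 43 and 20 for tetraconazole, and 7 and 0 for hexaconazole. The trend fitted to imazalil and DMSO alone had called 865 and 326 for imazalil. The joint model takes its spread from the libraries of all 5 chemicals and DMSO, and the cause of the unlike counts was not tested. The slope of imazalil exceeded the mean slope of the 4 azoles for 1623 probes (14.7%) and was below it for 828 (7.49%). Against triflumizole, the other imidazole, it was higher for 1294 probes (11.7%) and lower for 792 (7.16%). These 2 pairs were tested, and p-values were adjusted over all probes in each. Without the 33.3 µM imazalil library 0 probes differed from the mean of 4 azoles and 1 from triflumizole.

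At 33.3 µM Ddit3 had 1773 CPM with imazalil, against 53.4 CPM with triflumizole, 61.3 CPM with flusilazole, 87.6 CPM with tetraconazole and 75.3 CPM with hexaconazole. The slope of imazalil exceeded their mean by 3.70 (SE 0.36, adjusted p 2.6e-08). Atf3 had 232 CPM with imazalil and 23.5 to 34.9 CPM with the other 4 (difference 2.15, SE 0.31), and Tnik 28.6 CPM with imazalil and 0.911 to 1.76 CPM with the other 4 (4.04, SE 0.48). Rragd, Cd55 and Zbed4 differed by 3.03 (SE 0.46), 2.87 (SE 0.41) and 2.84 (SE 0.50). Cpt1b and Fabp1 were higher with imazalil, by 2.36 (SE 0.38) and 0.84 (SE 0.20). Nefl and the fucose transporter gene Slc35c1 were lower, by -2.49 (SE 0.85) and -2.40 (SE 0.63). The call of Nefl was lost without triflumizole, without imazalil 3.7 µM, with the rank score and with DMSO replicate 1 added. Of 29 tested integrated stress response genes 10 had a higher and 6 a lower slope with imazalil, and of 16 p53 genes 6 had a higher slope and none a lower one. Over all probes 14.7% had a higher and 7.49% a lower slope. Of 27 tested NRF2 genes 2 had a higher and 4 a lower slope. Against triflumizole 0 of these 27 were higher and 13 lower, with a median of -0.89, a result chosen after its values were seen. The shares over all probes there were 11.7% and 7.16%. Nqo1 had 275 CPM with triflumizole at 33.3 µM and 23.1 CPM with imazalil, while Srxn1 had 228 and 638 CPM.

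Cyp3a1 and the Ugt2b genes had lower levels with imazalil than with the other 4 at the top dose. At 11.1 µM Cyp3a1 had 1640 CPM with imazalil, 1113 CPM with triflumizole, 2031 CPM with flusilazole, 1702 CPM with tetraconazole and 992 CPM with hexaconazole. At 33.3 µM it had 729 CPM with imazalil and 1465 to 2344 CPM with the other 4. Ugt2b10 had 277 CPM with imazalil at 33.3 µM and 1267 to 2080 CPM with the other 4, a difference in slope of -1.21 (SE 0.45, adjusted p 0.048). The difference for Ugt2b1 was -1.11 (SE 0.41, adjusted p 0.049). Both calls were lost without any one of DMSO replicates 2, 4, 6, 7, 8 or 9, and without the plate term. They were lost as well without flusilazole, without tetraconazole, and without any single imazalil dose other than 11.1 µM. The same held with replicate 1 added and without the filter on low counts. The difference for Cyp3a1, -0.55 (SE 0.23), was not called. Cyp3a2 had 912 CPM with imazalil and 859 to 1041 CPM with the other 4 (difference 0.04, SE 0.13, not called), and Cyp2c6v1 519 CPM with imazalil and 375 to 568 CPM with the other 4 (0.12, SE 0.19, not called). Named after their values were seen, the P450 genes Cyp2d3 and Cyp2c12 had a higher slope with imazalil, by 1.12 (SE 0.23, adjusted p 0.00072) and 1.43 (SE 0.30, adjusted p 0.00095). Of 19 tested CAR and PXR targets 0 had a higher and 5 a lower slope with imazalil than the mean of 4 azoles. The shares over all probes were 14.7% higher and 7.49% lower. Cyp51 had 287 CPM at 33.3 µM with imazalil, 209 CPM with triflumizole, 433 CPM with flusilazole, 264 CPM with tetraconazole and 261 CPM with hexaconazole, and imazalil did not differ from their mean (-0.08, SE 0.15, adjusted p 0.74). Insig1 had 3122 CPM with imazalil and 732 to 1655 CPM with the other 4 (difference 1.01, SE 0.32, adjusted p 0.023), a call lost without hexaconazole or without triflumizole.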

How the data were processed

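The authors deposited raw TempO-Seq counts per probe, 22253 probes in 192 libraries. The submitters' processing notes name Bowtie. Its version and the genome build are not given in the sources used here. A probe was tested (11055 in all) if 6 or more libraries reached 1.74 CPM, which is 10 counts in a library of median depth. Counts were scaled by TMM and tested with edgeR 4.0.16 (R 4.3.3), quasi-likelihood, with plate as a term and Benjamini-Hochberg adjusted p under 0.05 as the threshold. All azole libraries are on plate 1. Changes at single doses are therefore set against its DMSO replicates 2 and 3, and their spread uses all 8. In the fits of the trend and of slopes the azole libraries fitted also enter the baseline and the spread. The trend used log2(1 + dose), and its values are fitted changes at 33.3 µM. Single doses have 1 library, which is assumed to vary like the DMSO libraries. Slopes of 5 azoles were compared in 1 model. DESeq2 1.42.0, another scaling, no filter, no plate term, a rank score and left-out libraries were alternatives. The tests were tried on simulated data. Reads without molecular identifiers are not independent molecules, and p-values measure only the spread between libraries, which may be technical.

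The members and gene lists were chosen with earlier results of these data known. Genes were named by a rule: for the trend, at most 15 called risers and 15 called fallers of largest fitted change, averaging 10 counts or more, whose sign held without 33.3 µM, and at most 8 and 8 for each difference between slopes. Each list added up to 4 members by trend p and called members that went against its majority. Where a gene has several probes, the one with the most counts stands for it. Promoter sequences are from RefSeq, build GRCr8. Results for some genes are not reported here.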

Additional observations from a re-analysis of the deposited data

Results flagged for a closer look

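Among 130 genes examined, 16 had 1 DMSO library far from the other 7, and in all 16 it was DMSO replicate 5, the library with the fewest counts. Chance alone flags about 1 in 20 groups. Replicate 5 was the highest for Apoa1 (4471 CPM), Hsp90b1 (4559 CPM), Por (472 CPM), Mat1a (411 CPM), Cebpa (130.1 CPM), Mvk (96.7 CPM), Scap (89.9 CPM) and Cdkn1a (21.1 CPM). It was the lowest for Sqle (11.3 CPM), Atp6v1c1 (64.3 CPM), Mdm2 (48.5 CPM), Impdh2 (18.4 CPM), F11 (63.6 CPM), Selenos (10.2 CPM), Dhcr7 (12.8 CPM) and Dhrs9 (1.13 CPM).

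The slope of imazalil differed from the mean slope of the 4 azoles for 15 of the genes whose difference was examined one by one, in edgeR, and for many further probes. It was higher for Tnik by 4.04, Ddit3 by 3.70, Rragd by 3.03, Cd55 by 2.87, Zbed4 by 2.84, Cpt1b by 2.36, Atf3 by 2.15, Cyp2c12 by 1.43, Cyp2d3 by 1.12, Insig1 by 1.01 and Fabp1 by 0.84 on the log2 scale. The difference was -2.49 for Nefl, -2.40 for Slc35c1, -1.21 for Ugt2b10 and -1.11 for Ugt2b1. None of the 15 was called without the 33.3 µM imazalil library.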

How the results depend on the processing

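The trend called 1191 probes, against 1915 in DESeq2, 2091 without the plate term, 52 with DMSO replicate 1, 2 on plate 1 alone, and 0 by rank or up to 3.7 µM. Leaving out 1 library gave 5 to 3403. At 0.4 µM the 227 became 353 in DESeq2, 374 unfiltered and 10 with replicate 1 (104 to 675 with a library left out). At 1.2 µM DESeq2 called 15, 26 were called unfiltered, and the fit without plate called 3 (0 to 27). At 3.7 µM DESeq2 called 5, and 4 were called unfiltered (0 to 2). At 11.1 µM the 5 became 19 in DESeq2, 11 unfiltered, 9 without plate and 0 with replicate 1 (0 to 23). At 33.3 µM the 3285 became 479 with replicate 1 (1683 to 4859). Leaving out 0.4 µM and DMSO replicate 5 together, chosen after seeing the data, gave 27 at 1.2 µM, 2 at 3.7 µM and 23 at 11.1 µM. Against the mean of 4 azoles the 2451 became 758 with replicate 1 and 1479 by rank (0 to 4417), and against triflumizole the 2086 became 222 and 822 (1 to 4123). The causes were not tested. Adding replicate 1 lost 52 of the 84 calls of single genes at 33.3 µM, and 5 changed sign. Among the lost were Insig1, Scap, Tf, Orm1, Hp, Cebpa, Cebpd, Por, Atf4, Ppara, Cyp3a2 and Cyp2c6v1. Of 35 trend calls of single genes 10 were kept, 23 lost and 2 changed sign. With replicate 1 the trend was -0.62 for Tgs1 and -6.03 for Ccng1, and the change at 33.3 µM -5.72 for Ccng1, -0.72 for Asns, -2.04 for Hspd1, -0.31 for Tiparp and -0.50 for Dhrs9. Up to 3.7 µM Cyp2b2 had -0.57. DESeq2 gave no adjusted p for Cyp1a1 at 11.1 µM. With a library left out, the difference from the 4 azoles ran over -0.15 to 4.20 for Ddit3, -0.54 to 2.58 for Atf3 and -0.29 to 1.43 for Insig1. No paired analysis was possible because the imazalil doses have 1 library each and the labels pair no imazalil library with a DMSO library.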

Other observations

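Interferon-stimulated genes, a list made after values were seen, were mostly lower at 33.3 µM: of 32 tested, 18 were lower and 2 higher, with a median of -1.52. Over all probes 15.7% were lower and 14% higher. Isg15, a ubiquitin-like modifier, had 355, 127, 217, 167, 160.4 and 29.5 CPM over the doses, against 139.8 to 291 CPM in DMSO (change at 33.3 µM -3.25, SE 0.32, adjusted p 0.00023 in edgeR). The lowest dose lay above the DMSO libraries and 0.4 and 33.3 µM lay below them. Mx2, an antiviral GTPase, had 0.335 CPM at 33.3 µM against 5.03 to 10.2 CPM (-4.84, SE 0.52), and Irf7, a factor of the interferon response, 3.52 CPM against 8.27 to 19.7 CPM (-2.11, SE 0.47). Rsad2, the antiviral enzyme viperin, went the other way, with 18.8 CPM against 2.44 to 5.42 CPM (1.94, SE 0.34). These genes were named after their values were seen. Against the mean slope of the 4 azoles, 2 of the 32 had a higher and 4 a lower slope with imazalil, with a median of -0.37. The shares over all probes were 14.7% higher and 7.49% lower. In the same model the Isg15 slope was -2.36 with imazalil and -1.04 to -2.36 with the other 4 (difference -0.70, SE 0.54, not called).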
